A study of Mus musculus with 6 samples.

Results

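Heat-shock proteins and endoplasmic reticulum (ER) chaperones were followed in upper first molars of newborn mice. The 10 genes, taken by symbol from 24972 in the deposited tables, were Hsp90aa1, Hsp90ab1, Hsp90b1, Hspa1a, Hspa1b, Hspa5, Hspa8, Hspd1, Hspe1 and Hsph1. All 10 were found. RNA came from maxillary first molars at postnatal day 1 (P1), with 2 libraries each of Ascl5Mut/Mut (both Ascl5 alleles mutant), Ascl5Mut/WT (1 mutant allele) and Ascl5WT/WT mice, all in 1 named batch. Ascl5 is a transcription factor gene of the basic helix-loop-helix family, and the study asked how its mutation changes transcript levels in the tooth. The labels give neither the base change of the mutant allele nor the strain, sex or number of animals or teeth behind a library, so the p-values measure the spread between these samples, which may be technical.

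Chaperones bind unfolded proteins and help them fold, and heat-shock proteins are those whose genes are switched on by heat and other protein-damaging stress through heat-shock factors. In the cytosol, HSP70 proteins take up unfolded chains and hand some of them to HSP90, which matures kinases, steroid receptors and other client proteins. The ER holds its own HSP70 and HSP90, which fold secreted proteins and whose genes are raised by the unfolded protein response, while a chaperonin ring folds proteins inside mitochondria. Cells of the tooth germ secrete large amounts of matrix protein, which passes through the ER.

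Promoter windows of 4 genes are shown because they hold the textbook control elements of both stress responses. They are from RefSeq (GRCm38.p6), run from 250 bases before to 50 bases after the annotated start, and are written 5′ to 3′ on the gene's strand. Of the 10 genes, 7 had a window, and Hsp90aa1, Hsp90ab1 and Hspa8 did not. Capitals mark the ER stress element, CCAAT and CCACG with any 9 bases between them, in Hspa5 (chr2:34771840-34772139, plus strand) and Hsp90b1 (chr10:86705395-86705694, minus strand). In Hspe1 (chr1:55087898-55088197, plus strand) they mark the heat-shock element, which is GAANNTTC, any 2 bases and GAA, or the mirrored order TTC, any 2 bases, GAA, any 2 bases and TTC. In Hspa1b (chr17:34959189-34959488, minus strand) they mark its shorter core, GAANNTTC.
Hspa5: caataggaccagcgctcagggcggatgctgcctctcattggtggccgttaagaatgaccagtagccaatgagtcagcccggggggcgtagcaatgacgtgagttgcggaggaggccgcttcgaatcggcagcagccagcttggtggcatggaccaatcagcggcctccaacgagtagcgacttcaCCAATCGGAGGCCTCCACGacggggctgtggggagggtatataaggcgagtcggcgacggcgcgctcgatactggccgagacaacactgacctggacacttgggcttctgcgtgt
Hsp90b1: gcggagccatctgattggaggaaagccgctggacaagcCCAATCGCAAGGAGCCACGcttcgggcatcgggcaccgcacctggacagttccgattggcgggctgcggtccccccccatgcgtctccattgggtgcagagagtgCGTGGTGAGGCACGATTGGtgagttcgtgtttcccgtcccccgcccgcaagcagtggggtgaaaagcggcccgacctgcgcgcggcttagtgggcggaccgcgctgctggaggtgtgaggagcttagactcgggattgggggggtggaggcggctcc
Hspe1: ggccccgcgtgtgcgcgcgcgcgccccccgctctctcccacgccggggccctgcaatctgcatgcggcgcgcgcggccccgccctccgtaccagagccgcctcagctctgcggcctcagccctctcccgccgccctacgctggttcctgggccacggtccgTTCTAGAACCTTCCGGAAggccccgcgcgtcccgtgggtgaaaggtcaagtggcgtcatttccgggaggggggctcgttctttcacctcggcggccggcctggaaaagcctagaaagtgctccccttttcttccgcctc
Hspa1b: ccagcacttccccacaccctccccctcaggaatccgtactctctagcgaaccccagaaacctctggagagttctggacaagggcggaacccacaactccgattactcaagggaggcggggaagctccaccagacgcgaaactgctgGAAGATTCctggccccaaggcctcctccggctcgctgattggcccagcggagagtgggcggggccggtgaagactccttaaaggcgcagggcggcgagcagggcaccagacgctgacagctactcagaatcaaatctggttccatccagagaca
Both strands were searched in 32851 windows of all genes. The ER stress element, which contains the CCAAT box, was in 0.119% of them, and CCAAT alone was in 37.4%. The Hspa5 window held the element once, 65 bases before the start, and the Hsp90b1 window held it at 212 and 107 bases before the start. The heat-shock element was in 0.603% of all windows. Hspe1 held 2 overlapping copies, 89 and 84 bases before its start, and the second of 2 Hspd1 windows covers the same DNA from the other strand. Hsph1 held 1 copy inside the transcribed bases of both of its windows. The core GAANNTTC, which the full element contains, was in 7.86% of all windows and stood upstream of the start, at the same distance, in Hspa1a and Hspa1b, whose windows differ at 4 of 300 bases. A match of letters is a description and not a binding site.

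The values are gene counts that the authors normalized, in 2 tables that each set 1 mutant genotype beside the same Ascl5WT/WT libraries. Totals were 12304814 to 13118122 per library, and 1 read appears to be worth 109 to 140 normalized counts, which gives an estimated 90476 to 117399 counted reads. At this depth a gene listed at 0 is compatible with up to 3 reads, or 326 to 419 normalized counts depending on the library, for counting error only. Ascl5 was at 0 in all libraries, so it could not check the genotypes. Of the tissue markers, Krt14 of dental epithelium was at 6362 to 36780 in every library, but Msx1 of dental mesenchyme was at 0 in all 4 mutant libraries and Pax9 in both Ascl5WT/WT libraries. Summed markers of keratinized oral epithelium, bone and osteoclasts were higher in both mutant genotypes, with values given beside the results below. The strand setting used in counting is not given in the sources used here. Where genes on opposite strands overlap, it is therefore not known which of them the reads came from. Where the gene Sp6 of dental epithelium shares 3329 exon bases with Gm11532 on the opposite strand, Gm11532 held 2113 and 29497 normalized counts in Ascl5Mut/Mut molars, against 869884 and 389895 in Ascl5WT/WT molars, while Sp6 held 0 and 0, against 1525 and 0 in Ascl5WT/WT molars. Whether reads were counted on the wrong strand was not tested, and if they were, the value of every member would stand for reads from the strand opposite its gene.

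Hsp90ab1, per kilobase, was above every other member in all 6 libraries. Hspa1a, Hspa1b and Hsph1 were at 0 in both Ascl5WT/WT libraries, where 67.2% and 68.6% of all genes were at 0, among them the prefoldin subunit genes Pfdn5 and Pfdn6, which most cells use. Per kilobase of annotated exon, retained introns included, Hsp90ab1 had a median level of 5615 normalized counts over the 6 libraries, with a range of 3885 to 15488. Hspe1 followed at a median of 1935 per kilobase (1416 to 2274), and at this exon length its range lay wholly below that of Hsp90ab1. The length used was 1474 bases for Hspe1, whose protein-coding transcripts hold only 725 different 50-base windows. For Hsp90ab1 these figures were 2999 and 2686. Whether the ranges stay apart at transcript length was not tested. Hsp90b1 (median 1167 per kilobase), Hspa5 (1160), Hsp90aa1 (1020) and Hspa8 (786) came next, and the ranges of these neighbours overlapped. Hspd1, Hspa1b, Hsph1 and Hspa1a had medians of 50.9 per kilobase or less. Of the 10 genes, 6 had a mean of at least 1000 normalized counts and were tested, and the other 4 are described by their values.

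Hsp90ab1 (17:45567775-45573271, minus strand, GRCm38) encodes the constitutive cytosolic HSP90 and showed the widest distance between genotypes among the tested members. It had 12534 and 11651 normalized counts in Ascl5Mut/Mut molars, against 46449 and 30996 in Ascl5WT/WT molars of the same table. In the other table it had 18521 and 15155 in Ascl5Mut/WT molars, against 47423 and 32370 in Ascl5WT/WT molars. Every mutant library lay below every Ascl5WT/WT library, and the Ascl5WT/WT libraries differed from each other more than the mutant replicates did. These values rest on an estimated 89.7 and 85.7 reads in Ascl5Mut/Mut, 146 and 111 in Ascl5Mut/WT, and 427 and 258 in Ascl5WT/WT. In rank, Hsp90ab1 was gene 135 and 133 from the top in Ascl5Mut/Mut libraries and gene 17 and 37 in Ascl5WT/WT libraries.

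The Ascl5Mut/Mut mean of Hsp90ab1 was 12092 ± 624 and the Ascl5WT/WT mean 38723 ± 10927 (SD, n = 2 each), a difference of -1.64 on the log2(value + 120) scale with an SE of 0.33 and a 95% interval of -2.38 to -0.90. It stood 25th by p among 2336 genes and did not pass the test (limma adjusted p = 0.0566). In Ascl5Mut/WT the mean was 16838 ± 2380 and in Ascl5WT/WT 39897 ± 10644 (SD, n = 2 each), a difference of -1.22 with an SE of 0.33 and an interval of -1.91 to -0.53. This was the 26th smallest p among 2370 genes and did not pass either (limma adjusted p = 0.141). Both comparisons use the same Ascl5WT/WT libraries and are not independent. The Ascl5Mut/Mut difference passed with a pseudocount of 500, with rescaling by the median log ratio and with a replicate block (limma adjusted p = 0.0479, 0.0349 and 0.0252). It did not pass in the other 6 of 9 alternative settings with all libraries kept (limma adjusted p = 0.0754 to 0.576). The Ascl5Mut/WT difference passed in none of these 9 settings (limma adjusted p = 0.112 to 0.595). Among the 9, a minimum mean of 10 and no filter tested the same genes and are not separate alternatives. With 1 library left out, the difference was -1.93 to -1.35 for Ascl5Mut/Mut and -1.49 to -0.95 for Ascl5Mut/WT. Both were widest without Ascl5WT/WT replicate 2, the lower of that pair.

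In whole tissue, fewer cells that use a gene and less RNA per cell cannot be told apart. Markers of other cell types differed alongside Hsp90ab1. The summed level of 11 keratinized oral epithelium genes was 19515 to 129266 in Ascl5Mut/Mut and 219 to 540 in Ascl5WT/WT, where 8 of them, Krt76 and Rptn included, were at 0 in both libraries. In the other table that sum was 14446 to 49754 in Ascl5Mut/WT and 222 to 562 in Ascl5WT/WT. The sum of 8 bone genes was 27769 to 35876 in Ascl5Mut/Mut, 10658 to 25464 in Ascl5Mut/WT and 655 to 7741 in Ascl5WT/WT, where Dmp1, Phex and Bglap2 were at 0. The sum of 8 osteoclast genes was 11955 to 17042 in Ascl5Mut/Mut, 2169 to 7838 in Ascl5Mut/WT and 120 to 441 in Ascl5WT/WT, with Oscar, Dcstamp, Ocstamp and Calcr at 0 in all libraries. The 11 dental epithelium markers summed to 8797 to 29512 in Ascl5Mut/Mut, below the 32302 to 42848 of Ascl5WT/WT, and to 22796 to 59126 in Ascl5Mut/WT, which overlapped its Ascl5WT/WT range. A large part of the Ascl5WT/WT sum was Trp63, which had 1049 and 5829 in Ascl5Mut/Mut molars, against 21134 and 13756 in Ascl5WT/WT molars. Krt14 overlapped between these groups, with 6362 and 20549 against 14740 and 13227. Of 4 epithelium markers tested for Ascl5Mut/Mut, 2 were lower without overlap, beside 21.8% of all tested genes, and limma called 0. For Ascl5Mut/WT this held for 1 of 5, beside 19.5% of all tested genes, and limma called 0. Skeletal muscle and erythroid sums overlapped between groups, but replicates of a genotype could lie far apart. Muscle genes summed to 93740 and 4408 in Ascl5Mut/Mut molars, against 543 and 12095 in Ascl5WT/WT molars. In Ascl5Mut/WT they summed to 27688 and 6933, against 553 and 12546 in Ascl5WT/WT molars. Erythroid genes summed to 5224 and 3006 in Ascl5Mut/Mut molars, against 787 and 23656 in Ascl5WT/WT molars. The 9 dental mesenchyme markers summed to 1954 to 3189 in Ascl5Mut/Mut, 11588 to 22831 in Ascl5Mut/WT and 51604 to 57645 in Ascl5WT/WT. Most of the Ascl5WT/WT mesenchyme sum was Dlx1, which had 2348 and 556 in Ascl5Mut/Mut molars, against 47224 and 53336 in Ascl5WT/WT molars (limma adjusted p = 0.00405). It had 4658 and 2064 in Ascl5Mut/WT molars, against 48116 and 55586 in Ascl5WT/WT molars (limma adjusted p = 1.41e-05). The odontoblast gene Dspp went the other way, with 14045 and 8122 in Ascl5Mut/WT molars, against 336 and 0 in Ascl5WT/WT molars (limma adjusted p = 0.000399). Neither Ascl5Mut/Mut library had a count of Dspp. The part of these cell types in the chaperone values was not tested.

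Hsp90aa1 (12:110690605-110702728, minus strand), the stress-inducible cytosolic HSP90, had 3049 and 3872 normalized counts in Ascl5Mut/Mut molars, against 5373 and 5644 in Ascl5WT/WT molars. It had 4150 and 1858 in Ascl5Mut/WT molars, against 5479 and 5887 in Ascl5WT/WT molars. Each mutant library was again below both Ascl5WT/WT libraries, and the Ascl5Mut/WT replicates were far apart. Neither difference passed, at -0.66 for Ascl5Mut/Mut (SE 0.47, limma adjusted p = 0.607) and -0.997 for Ascl5Mut/WT (SE 0.51, limma adjusted p = 0.587). Their 95% intervals ran to -1.71 and -2.06 at the low end and to 0.38 and 0.06 at the high end. Of all 50-base windows along the Hsp90aa1 transcripts, 50.1% also occur in other annotated genes, mostly the pseudogene Gm12346 (44.1%), so its reads may be divided or lost in a way that those of Hsp90ab1 (4.13%) are not.

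The ratio of the constitutive to the inducible HSP90 transcript, Hsp90ab1 over Hsp90aa1, was 4.11 and 3.01 in Ascl5Mut/Mut molars, against 8.64 and 5.49 in Ascl5WT/WT molars. It was 4.46 and 8.16 in Ascl5Mut/WT molars, against 8.66 and 5.50 in Ascl5WT/WT molars. The groups were apart for Ascl5Mut/Mut and overlapped for Ascl5Mut/WT. Ratios are of normalized counts within a library and were not tested.

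**Figure D1:**
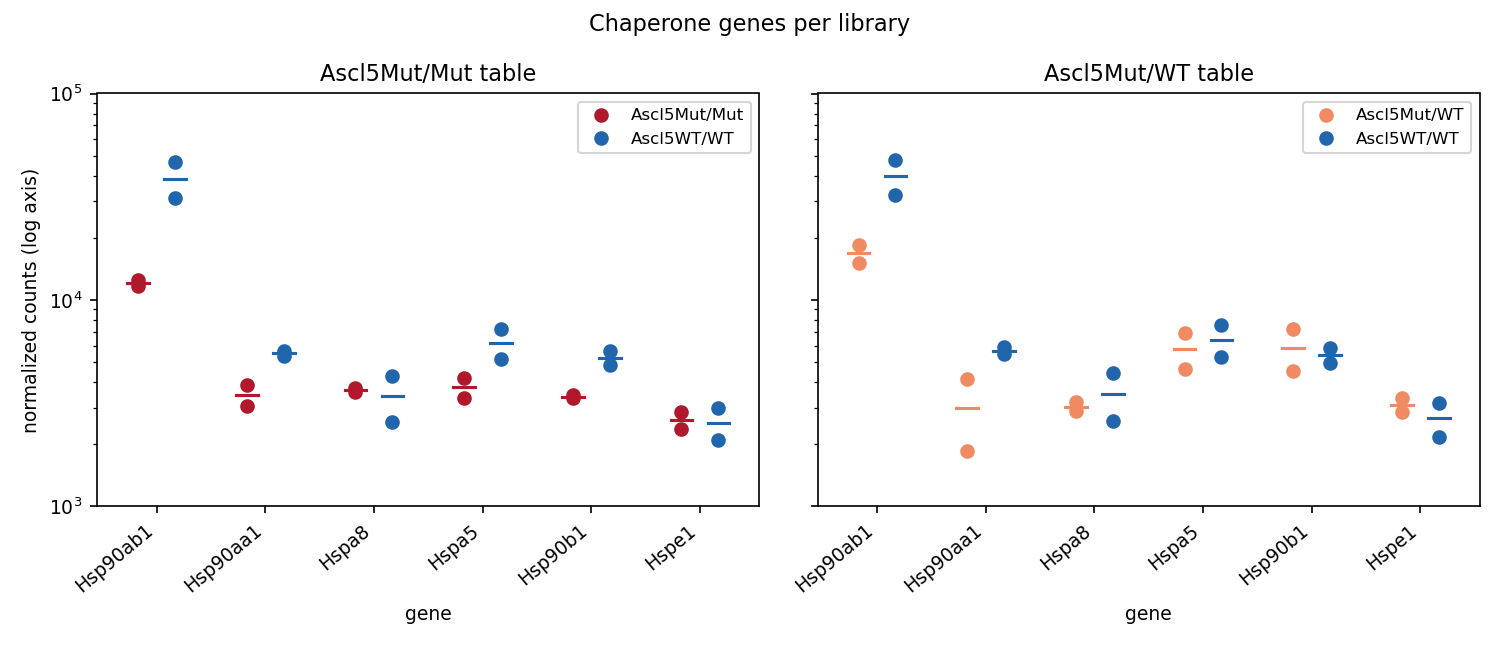
Normalized counts (log axis) of the 6 tested chaperone genes, with Ascl5Mut/Mut beside Ascl5WT/WT on the left and Ascl5Mut/WT beside Ascl5WT/WT on the right. Points are libraries and bars are means (n = 2 each); for Hsp90ab1 all mutant libraries sit at 11651 to 18521, below Ascl5WT/WT, while Hspa8 and Hspe1 overlap between groups.

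Hspa8 (9:40800984-40810087, plus strand), the constitutive cytosolic HSP70, showed no separation. It had 3762 and 3562 normalized counts in Ascl5Mut/Mut molars, against 2558 and 4261 in Ascl5WT/WT molars. In the other table it had 3199 and 2886 in Ascl5Mut/WT molars, against 2593 and 4417 in Ascl5WT/WT molars. The mutant replicates lay inside the Ascl5WT/WT spread in both. The differences were 0.14 for Ascl5Mut/Mut (SE 0.52, interval -1.02 to 1.30, limma adjusted p = 0.940) and -0.15 for Ascl5Mut/WT (SE 0.52, interval -1.24 to 0.93, limma adjusted p = 0.939). The intervals allow changes of about 1 log2 unit either way. Hspa8 shares 67.3% of its 50-base windows with 11 other genes, among them Gm15459 (64.4%).

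Relative to this HSP70, the constitutive HSP90 stood lower in every mutant library. The ratio Hsp90ab1 over Hspa8 was 3.33 and 3.27 in Ascl5Mut/Mut molars, against 18.2 and 7.27 in Ascl5WT/WT molars. It was 5.79 and 5.25 in Ascl5Mut/WT molars, against 18.3 and 7.33 in Ascl5WT/WT molars. The groups did not overlap in either table, although the Ascl5WT/WT libraries were themselves far apart.

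The heat-inducible HSP70 genes were close to the detection limit. Hspa1a (17:34969190-34972156, minus strand) was at 0 in all libraries except Ascl5Mut/WT replicate 2, where it had 547 normalized counts, or about 4 estimated reads. Hspa1b (17:34956436-34959238, minus strand) had 137 and 416 in Ascl5Mut/Mut libraries, 127 and 0 in Ascl5Mut/WT libraries, and 0 in both Ascl5WT/WT libraries. Hspa1a and Hspa1b encode near-identical proteins, and 62.3% of the Hspa1b windows also occur in Hspa1a, whose exon overlaps Gm20481 on the opposite strand by 564 bases. Hsph1 (5:149614287-149636376, minus strand), an HSP110 that exchanges nucleotide on HSP70, had 284 and 135 in Ascl5Mut/Mut libraries, 0 and 1367 in Ascl5Mut/WT libraries, and 0 in both Ascl5WT/WT libraries. These 3 genes were above 0 only in mutant libraries, but apart from Hsph1 in Ascl5Mut/WT replicate 2, at about 10 estimated reads, each value was worth about 4 reads or fewer. At this depth no difference between genotypes could be established for them.

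In the ER, Hspa5 and Hsp90b1 stood below Ascl5WT/WT in both Ascl5Mut/Mut libraries and overlapped with it in Ascl5Mut/WT. Hspa5 (2:34771970-34777547, plus strand), the ER HSP70 also known as BiP, had 4176 and 3360 normalized counts in Ascl5Mut/Mut molars, against 5179 and 7246 in Ascl5WT/WT molars. Hsp90b1 (10:86690209-86705509, minus strand), the ER HSP90 known as GRP94, had 3449 and 3342 in Ascl5Mut/Mut molars, against 4861 and 5623 in Ascl5WT/WT molars. For both genes each Ascl5Mut/Mut library was below both Ascl5WT/WT libraries. Neither passed the test, with a difference of -0.69 for Hspa5 (SE 0.47, interval -1.73 to 0.35, limma adjusted p = 0.592) and -0.61 for Hsp90b1 (SE 0.47, interval -1.65 to 0.44, limma adjusted p = 0.634).

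Ascl5Mut/WT molars had 4634 and 6878 normalized counts of Hspa5, against 5278 and 7553 in Ascl5WT/WT molars, a difference of -0.16 (SE 0.44, interval -1.08 to 0.77, limma adjusted p = 0.918). For Hsp90b1 they had 7194 and 4548, against 4962 and 5872 in Ascl5WT/WT molars, a difference of 0.08 (SE 0.45, interval -0.85 to 1.02, limma adjusted p = 0.965). The groups overlapped for both genes. Whether the mutant genotypes differ from each other was not tested, since the tables were normalized separately. The ratio of Hspa5 to Hsp90b1 was 1.21 and 1.01 in Ascl5Mut/Mut libraries, 0.644 and 1.51 in Ascl5Mut/WT libraries, and 1.07 and 1.29 in Ascl5WT/WT libraries of the first table, so it overlapped between all groups. Both promoters carry the ER stress element printed above, and both genes share few 50-base windows with others (0% for Hspa5 and 3.65% for Hsp90b1). Hsp90b1 exons overlap 1810014B01Rik on the opposite strand by 415 bases, and that gene was at 0 in all libraries except Ascl5Mut/WT replicate 2, where it had 274.

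The mitochondrial chaperonin pair lies head to head on chromosome 1, and the exons of Hspd1 (1:55077835-55088243, minus strand) and Hspe1 (1:55088132-55091307, plus strand) overlap by 112 bases. Hspe1, the HSP10 lid of the folding ring, had 2857 and 2359 normalized counts in Ascl5Mut/Mut molars, against 2087 and 3001 in Ascl5WT/WT molars. It had 2848 and 3351 in Ascl5Mut/WT molars, against 2156 and 3171 in Ascl5WT/WT molars. The groups overlapped in both tables, with differences of 0.05 for Ascl5Mut/Mut (SE 0.56, interval -1.20 to 1.30, limma adjusted p = 0.981) and 0.23 for Ascl5Mut/WT (SE 0.53, interval -0.88 to 1.34, limma adjusted p = 0.902). Hspd1, the HSP60 that forms the ring, was far lower than its partner. It had 0 and 134 in Ascl5Mut/Mut libraries, 376 and 135 in Ascl5Mut/WT libraries, and 773 and 0 in Ascl5WT/WT libraries of the first table, with groups that overlapped. Of their windows, 39.7% for Hspd1 and 36.1% for Hspe1 occur in other genes, mostly processed copies.

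Over the 10 genes, limma called none in either comparison. For Ascl5Mut/Mut, 0 of the 6 tested members passed, where 0.856% of all 2336 tested genes did, and 1 of 6, Hsp90ab1, was lower at an unadjusted p under 0.05, where 4.84% of all genes were lower and 11.2% differed in either direction. Both Ascl5Mut/Mut libraries were below both Ascl5WT/WT libraries for 4 of 6 members (Hsp90ab1, Hsp90aa1, Hspa5 and Hsp90b1), and for 21.8% of all genes. For Ascl5Mut/WT, 0 of 6 passed, where 0.549% of 2370 genes did, and 1 of 6, again Hsp90ab1, was lower at an unadjusted p under 0.05, where 3.38% of all genes were lower and 8.73% differed in either direction. Both Ascl5Mut/WT libraries were below both Ascl5WT/WT libraries for 2 of 6 members (Hsp90ab1 and Hsp90aa1), and for 19.5% of all genes. The median difference over the tested members was -0.63 for Ascl5Mut/Mut, beside -0.02 over all tested genes, and -0.15 for Ascl5Mut/WT, beside 0.04. In each comparison 4 of 6 members had a difference below 0, and 50.8% of all tested genes did for Ascl5Mut/Mut and 47.9% for Ascl5Mut/WT.

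**Figure D2:**
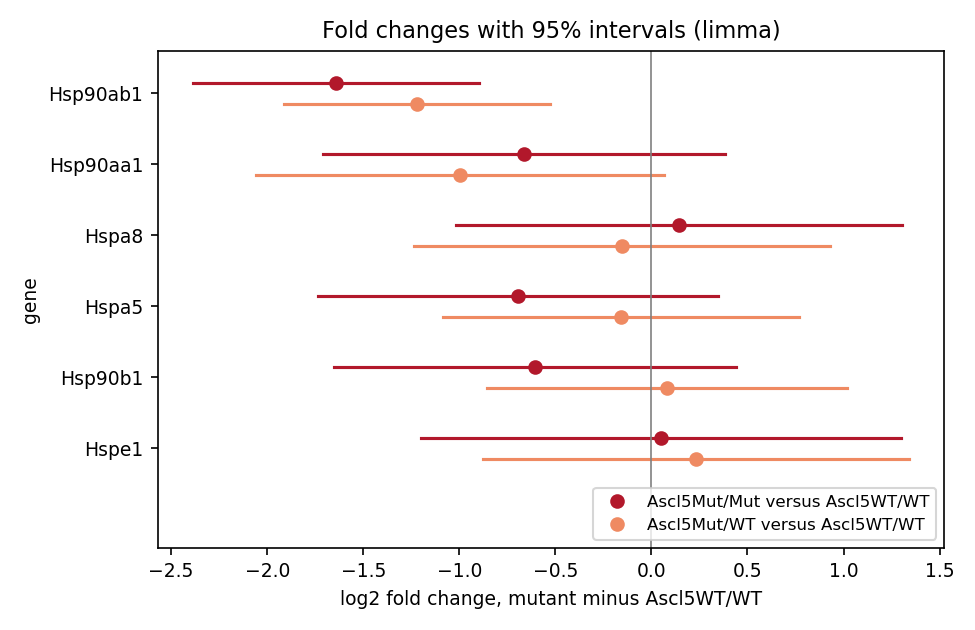
Difference in log2(value + 120), mutant minus Ascl5WT/WT, for the 6 tested chaperone genes with 95% intervals from limma, for Ascl5Mut/Mut (dark) and Ascl5Mut/WT (light). Hsp90ab1 lies at -1.64 and -1.22 with intervals that leave out 0 before adjustment over all genes, and the intervals of the other genes include 0.

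Summed over the 10 genes, chaperone transcripts made up 0.234% and 0.234% of all normalized counts in Ascl5Mut/Mut molars, against 0.529% and 0.452% in Ascl5WT/WT molars. They made up 0.313% and 0.281% in Ascl5Mut/WT molars, against 0.530% and 0.453% in Ascl5WT/WT molars. The mutant shares were lower in every library, and Hsp90ab1 carried most of the distance. With Hsp90ab1 left out, the sum was 17713 and 17180 normalized counts in Ascl5Mut/Mut molars, against 20831 and 25775 in Ascl5WT/WT molars, still without overlap. Without it the sum was 22528 and 21570 in Ascl5Mut/WT molars, against 21262 and 26901 in Ascl5WT/WT molars, and there the groups overlapped. Hsp90ab1 alone was 41.4% and 40.4% of the chaperone sum in Ascl5Mut/Mut libraries, 45.1% and 41.3% in Ascl5Mut/WT libraries, and 69.0% and 54.6% in Ascl5WT/WT libraries.

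**Figure D3:**
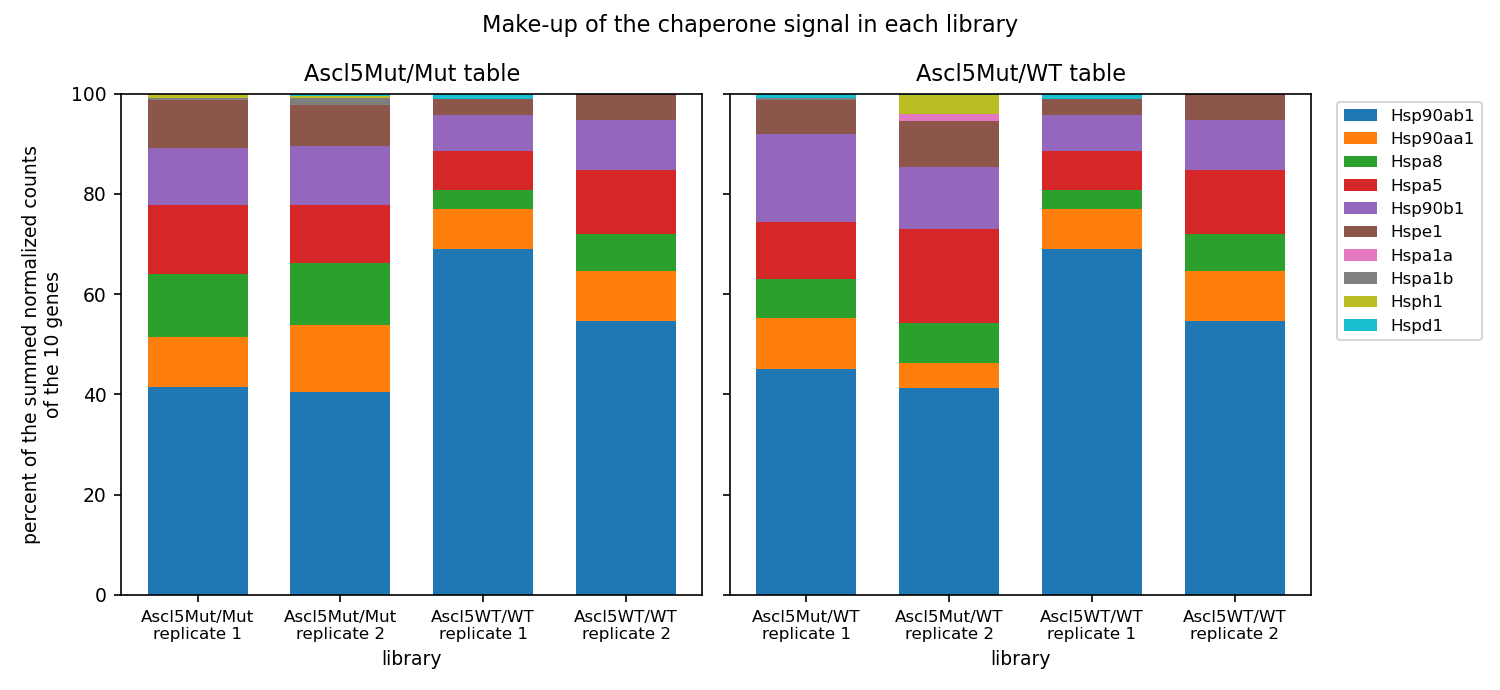
Percent of the summed normalized counts of the 10 chaperone genes contributed by each gene, 1 bar per library, mutant libraries left of Ascl5WT/WT in each panel. Hsp90ab1 takes 40.4% to 45.1% in mutant libraries and 54.6% to 69.0% in Ascl5WT/WT libraries.

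The genes around these chaperones were read from lists of cochaperones and stress regulators. Of 131 listed genes, 29 could be tested in the Ascl5Mut/Mut table and 31 in the Ascl5Mut/WT table, and limma called 0 in each. At an unadjusted p under 0.05 there were 3 for Ascl5Mut/Mut, 2 higher and 1 lower, and 1 higher for Ascl5Mut/WT. Over all tested genes, 11.2% and 8.73% had such a p in these comparisons and 0.856% and 0.549% were called, so the counts on the lists were not above the background. The 4 heat-shock transcription factor genes had too few counts to test. So did the 16 regulators of the unfolded protein response, except Mbtps1 in Ascl5Mut/WT, the protease that activates ATF6, which had 1647 and 1923 in Ascl5Mut/WT molars, against 557 and 1848 in Ascl5WT/WT molars. Among 17 immediate early genes, which respond to handling and stress, Jund and Klf4 were tested and overlapped between groups in both comparisons. Jund exons overlap Gm11175 on the opposite strand by 877 bases.

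Among HSP90 cochaperones, 2 of 18 were tested. Ahsa2, related to the HSP90 ATPase activator Ahsa1, had 17487 and 18757 normalized counts in Ascl5Mut/Mut molars, against 33095 and 46178 in Ascl5WT/WT molars, a difference of -1.10 (SE 0.31, limma adjusted p = 0.203). In Ascl5Mut/WT it had 35306 and 32786, against 33780 and 48211 in Ascl5WT/WT molars, and the groups overlapped. Its exons overlap those of Usp34 on the opposite strand by 2137 bases, so its reads may belong to either gene. Stub1, the ubiquitin ligase CHIP that acts on HSP70 and HSP90 clients, overlapped between groups in both comparisons. Stub1 exons overlap Jmjd8 on the opposite strand by 1084 bases.

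The other cytosolic HSP70, HSP40 and small heat-shock genes had a median difference of -0.30 in Ascl5Mut/Mut and of -0.69 in Ascl5Mut/WT. Over all tested genes these medians were -0.02 and 0.04. In each comparison 6 of 9 tested genes on the list were below 0, where 50.8% and 47.9% of all tested genes were. Dnaja1, an HSP40 that delivers clients to HSP70, had 4078 and 5153 normalized counts in Ascl5Mut/Mut molars, against 8082 and 7360 in Ascl5WT/WT molars (limma adjusted p = 0.556). It had 5071 and 4175 in Ascl5Mut/WT molars, against 8165 and 7605 in Ascl5WT/WT molars (limma adjusted p = 0.594). Both mutants were below Ascl5WT/WT without passing, and its exons overlap Smu1 on the opposite strand by 608 bases. Hspa12b, a distant HSP70 relative of endothelial cells, had 1516 and 1131 in Ascl5Mut/Mut molars, against 3157 and 2934 in Ascl5WT/WT molars (limma adjusted p = 0.511). It had 1260 and 1694 in Ascl5Mut/WT molars, against 3199 and 3041 in Ascl5WT/WT molars (limma adjusted p = 0.594). Hspa12b also lay below Ascl5WT/WT in every mutant library. On this list both Ascl5Mut/Mut libraries were below both Ascl5WT/WT libraries for 3 of 9 tested genes, beside 21.8% of all tested genes. For Ascl5Mut/WT this held for 5 of 9, beside 19.5% of all tested genes. The summed level of 6 endothelial markers was higher in Ascl5Mut/Mut, at 1522 to 1538 against 365 to 583 in Ascl5WT/WT. It overlapped for Ascl5Mut/WT, at 534 to 977 against 346 to 587 in Ascl5WT/WT. The Ascl5WT/WT sums were close to the 326 to 419 normalized counts compatible with a gene listed at 0. Emcn and Cldn5 were at 0 in all libraries, and Pecam1 and Tek in both Ascl5WT/WT libraries. The part of endothelial cells in the Hspa12b values was not tested. St13, the HSP70-interacting protein HIP, overlapped between groups in Ascl5Mut/Mut and had 2152 and 1335 in Ascl5Mut/WT molars, against 3816 and 3649 in Ascl5WT/WT molars (limma adjusted p = 0.587). Bag1, a nucleotide exchange factor of HSP70, went the other way, with 3105 and 3022 in Ascl5Mut/WT molars, against 1001 and 1258 in Ascl5WT/WT molars, a difference of 1.36 (SE 0.60, limma adjusted p = 0.518). In Ascl5Mut/Mut it had 3075 and 1262, against 964 and 1185 in Ascl5WT/WT molars.

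The CCT chaperonin folds actin and tubulin. Its subunit Tcp1 had 4238 and 4303 normalized counts in Ascl5Mut/Mut molars, against 8309 and 5979 in Ascl5WT/WT molars (limma adjusted p = 0.577). It had 4544 and 5567 in Ascl5Mut/WT molars, against 8559 and 6300 in Ascl5WT/WT molars (limma adjusted p = 0.718). Every mutant library was below both Ascl5WT/WT libraries, without passing, and its exons overlap Acat3 on the opposite strand by 571 bases. Of all tested genes, 21.8% lay below in this way for Ascl5Mut/Mut and 19.5% for Ascl5Mut/WT. The 3 tested CCT and prefoldin genes had a median difference of -0.54 in Ascl5Mut/Mut, and the 4 tested in Ascl5Mut/WT a median of 0.00. Over all tested genes the medians were -0.02 and 0.04. Cct6a, another subunit, had 3055 and 2135 in Ascl5Mut/Mut molars, against 6073 and 2312 in Ascl5WT/WT molars, and 2885 and 2395 in Ascl5Mut/WT molars, against 6197 and 2413 in Ascl5WT/WT molars. Its groups overlapped in both tables, and its exons overlap Psph on the opposite strand by 452 bases. Cct8, also a subunit, overlapped in Ascl5Mut/Mut and had 3113 and 1732 in Ascl5Mut/WT molars, against 1582 and 1019 in Ascl5WT/WT molars (limma adjusted p = 0.713), and its exons overlap Usp16 on the opposite strand by 192 bases. Mitochondrial chaperones other than the members had medians of -0.23 over 3 genes in Ascl5Mut/Mut and -0.11 over 2 in Ascl5Mut/WT, and each of these genes overlapped between groups. Hspa9, the mitochondrial HSP70, had 2669 and 2929 in Ascl5Mut/Mut molars, against 3864 and 2532 in Ascl5WT/WT molars, and 3768 and 1205 in Ascl5Mut/WT molars, against 3944 and 2644 in Ascl5WT/WT molars. Its nucleotide exchange factor Grpel1 had 141 and 2936 in Ascl5Mut/Mut molars, against 1755 and 1811 in Ascl5WT/WT molars, and 1774 and 3085 in Ascl5Mut/WT molars, against 1787 and 1887 in Ascl5WT/WT molars. Exons of Grpel1 overlap Tada2b on the opposite strand by 411 bases. Clpx, the unfoldase of a mitochondrial protease, had 280 and 2524 in Ascl5Mut/Mut molars, against 879 and 1340 in Ascl5WT/WT molars.

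The remaining ER chaperones and disulfide isomerases went in both directions. In Ascl5Mut/Mut their median difference was 0.27, with 7 of 10 tested genes above 0 and 3 below. In Ascl5Mut/WT it was 0.41, with 7 of 11 above 0 and 4 below. Over all tested genes the medians were -0.02 and 0.04, and 50.8% and 47.9% were below 0. Dnajc3, an ER HSP40 that works with BiP, had 4878 and 4911 normalized counts in Ascl5Mut/Mut molars, against 548 and 1963 in Ascl5WT/WT molars, a difference of 2.09 (SE 0.67, limma adjusted p = 0.285). P4hb, the protein disulfide isomerase that is also a subunit of collagen prolyl hydroxylase, had 15848 and 17585 in Ascl5Mut/Mut molars, against 10634 and 6388 in Ascl5WT/WT molars, a difference of 1.01 (SE 0.39, limma adjusted p = 0.368). In the other table, P4hb had 13080 and 13386 in Ascl5Mut/WT molars, against 10889 and 6690 in Ascl5WT/WT molars (limma adjusted p = 0.624). P4hb was therefore above Ascl5WT/WT in all 4 mutant libraries without passing, while Dnajc3 overlapped in Ascl5Mut/WT, with 3030 and 1605 against 556 and 2035 in Ascl5WT/WT. The share of all tested genes that lay above in this way was not computed. Serpinh1, the collagen chaperone HSP47, overlapped in Ascl5Mut/Mut and had 4413 and 2814 in Ascl5Mut/WT molars, against 2546 and 851 in Ascl5WT/WT molars (limma adjusted p = 0.590). Pdia3, an isomerase for glycoproteins, overlapped in both comparisons, with a difference of -0.90 in Ascl5Mut/Mut (limma adjusted p = 0.659). Whether the ER list differs from Hspa5 and Hsp90b1 was not tested. The summed bone markers given above were also higher in both mutants, and their part in the levels of these genes was not tested.

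**Figure D4:**
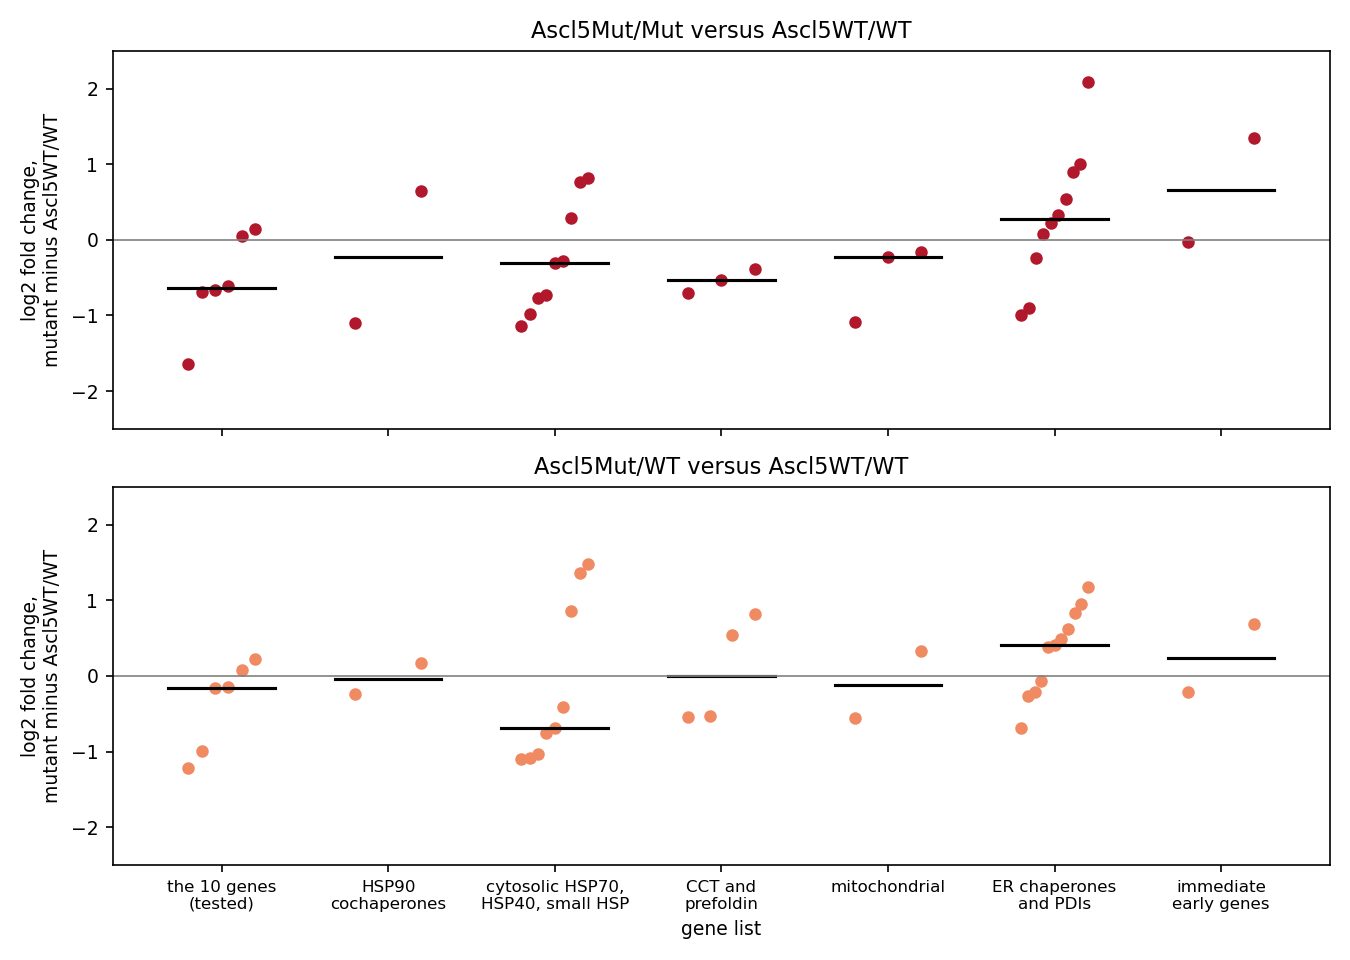
Log2 fold change of each tested gene (points) and the list median (bars), mutant minus Ascl5WT/WT, for the chaperone genes and the surrounding lists, with Ascl5Mut/Mut above and Ascl5Mut/WT below. In Ascl5Mut/Mut the tested members have a median of -0.63 and the other ER chaperones one of 0.27, and in Ascl5Mut/WT these medians are -0.15 and 0.41.

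Genes with a profile most like that of Hsp90ab1 were sought over the 6 libraries by the root mean square difference of centred log2 values, among 2028 genes. Among the closest were Chd6 (0.18 log2 units), 5430405H02Rik (0.19), Eif4g2 (0.22) and 9930014A18Rik (0.22), and none of these is on the chaperone lists. Chd6 had 1813 and 1861 normalized counts in Ascl5Mut/Mut libraries, 2150 and 2433 in Ascl5Mut/WT libraries, and 5852 and 4014 in Ascl5WT/WT libraries. Since Chd6 was picked for its likeness to Hsp90ab1 in these libraries, a similar order of the groups follows from the choice. Within each mutant pair Chd6 was higher in replicate 2, while Hsp90ab1 was higher in replicate 1. Exons of 5430405H02Rik overlap Tgif2 on the opposite strand by 2171 bases and those of 9930014A18Rik overlap Fam84b by 2474 bases. Of the other tested members, Hsp90aa1 came nearest, at place 162 with 0.53 log2 units, followed by Hsp90b1 at place 293, Hspa5 at 301, Hspa8 at 765 and Hspe1 at 774.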

How the data were processed

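RNA of 6 libraries was turned into strand-marked libraries (SMARTer Stranded kit, NovaSeq sequencing), per the labels' protocols and the design text. Per the submitters' processing notes, mm10 was the genome build and DESeq2 (version not given) a tool. Not given in the sources used here are aligner, counter, annotation and strand setting. The deposited values are the authors' normalized gene counts, handled as a linear signal, in 2 separately normalized tables, and the values of the members in the Ascl5WT/WT libraries differed between tables by a ratio of 1.01 to 1.06. Low values lie at multiples of a step, and 86.0% to 93.8% of the values up to 5 steps are within 0.1 of a whole number of steps, which does not give back whole reads, and count models were left out.

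Inside each table, mutant and Ascl5WT/WT libraries were compared by limma 3.58.1 (R 4.3.3) with an intensity trend on log2(value + 120), two-sided, for genes averaging at least 1000. Benjamini-Hochberg adjusted p-values under 0.05 over all tested genes counted as a call. This scale understates the change of low genes. With 2 libraries per group the smallest p of an exact permutation test is 0.33. The fit was checked on simulated data.

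The members, lists and settings were chosen with earlier results of these data known. Named were all members, from each chaperone or stress list the genes called and up to 3 with the smallest p per comparison, and the 5 genes most like Hsp90ab1, of which 1 is not reported here. Annotation, exon lengths and shared 50-base windows are from GENCODE M21 (GRCm38). Alternatives were other pseudocounts, filters and scalings, no trend, a replicate block and leaving out each library. A minimum mean of 10 and no filter tested the same genes and gave the same results.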

Additional observations from a re-analysis of the deposited data

How the results depend on the processing

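Calls over all tested genes, 20 for Ascl5Mut/Mut and 13 for Ascl5Mut/WT, depended on the settings. For Ascl5Mut/Mut they were 4 with a pseudocount of 1, 1 with a minimum mean of 10, 1 with no filter, 0 with a pseudocount of 1 and a minimum mean of 10 together, 0 with no intensity trend and 36 with the replicate block, and 0 to 74 with 1 library left out. For Ascl5Mut/WT they were 8 with a pseudocount of 1, 0 with both changed together, 0 with no trend, 37 with the block and 0 to 66 with 1 library left out. Same-numbered libraries did not deviate together (correlations of -0.01 and 0.02), so the block rests on a shared number only. The count of members called, 0 in both comparisons, was 1 for Ascl5Mut/Mut with a pseudocount of 500, with the median log ratio and with the block, and 0 to 1 with 1 library left out in either comparison. That member was Hsp90ab1, whose difference was -1.93 to -1.35 for Ascl5Mut/Mut and -1.49 to -0.95 for Ascl5Mut/WT over the libraries left out. Its limma adjusted p for Ascl5Mut/Mut was 0.0252 to 0.576 over the other settings and 0.000541 to 0.482 over the libraries left out, and for Ascl5Mut/WT it was 0.112 to 0.595 and 0.00588 to 0.896. Hsp90ab1 and Hsp90aa1 kept their sign in both comparisons under every setting run. Differences near 0 changed sign when 1 library was left out. For Ascl5Mut/Mut, Hspe1 ran from -0.20 to 0.30, with -0.08 without Ascl5Mut/Mut replicate 1, and Hspa8 from -0.21 to 0.50, both lowest without Ascl5WT/WT replicate 1. For Ascl5Mut/WT, Hsp90b1 ran from -0.24 to 0.41 and Hspa5 from -0.44 to 0.12, with 0.10 for Hspa5 without Ascl5WT/WT replicate 2, and Hspa8 ran from -0.52 to 0.22 and Hspe1 from -0.036 to 0.50. The cause was not tested. With 1 library left out, the lone sample of its group is assumed to vary like the other group. An estimated 90476 to 117399 reads per library leave Hspa1a, Hspa1b, Hspd1 and Hsph1 without a test.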
